A study of Mus musculus with 6 samples.

Results

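The interferon regulatory factors (IRFs) are a family of transcription factors, and 8 of its genes were followed in splenic CD4 T cells with raised, labelled as lost, or normal Blimp-1. The 8 genes, Irf1, Irf2, Irf3, Irf4, Irf5, Irf7, Irf8 and Irf9, were taken as a list of factors whose DNA motif overlaps that of Blimp-1, and they are 8 of 28914 genes in the deposited table. Each was found once by its Ensembl identifier, and all 8 passed the filter of at least 1 FPKM (fragments scaled by gene length and by library depth) in at least 2 libraries. RNA was sequenced from total CD4 T cells sorted from spleens of NOD mice aged 12 weeks, a strain that develops autoimmune diabetes, without restimulation of the T cell receptor. The 6 libraries form 3 groups of 2: cells that overexpress Blimp-1 (BTg), cells labelled as a Blimp1 knockout (CKO), and controls (WT). The labels do not name the promoter of the transgene, the Cre line or deleted exons of the knockout, and do not say whether libraries of 1 group stem from different animals. Any p-value therefore measures only the spread between these libraries.

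IRFs share a DNA-binding domain at the amino end that reads GAAA repeats, and Blimp-1 (the product of Prdm1), a zinc-finger repressor, reads a related repeat. Irf3 and Irf7 are switched on by phosphorylation downstream of viral sensors and drive type I interferon genes, and Irf9 is the DNA-binding part of the complex that answers type I interferon. Irf1 and Irf2 compete for the same elements, Irf1 as an activator and Irf2 mainly as its antagonist. Irf4 is induced by T cell receptor signals and acts with BATF in effector, follicular helper and regulatory T cells, and it is also needed for plasma cells. Irf8, its closest relative, and Irf5, which acts below Toll-like receptors, are best known from myeloid cells, dendritic cells and B cells.

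The promoters of the 8 genes were read from RefSeq (GRCm38.p6) to show which of them hold letters of either motif near the start site. The reference is of C57BL/6J and not of NOD. The tables held 11 promoters for the 8 genes, each 300 bases long with 250 before and 50 after the start. On both strands, the IRF element GAAANNGAAA was found in 1 of them, that of Irf2, against 3.44% of 32851 mouse promoters. The 11-letter Blimp-1 consensus GAAAGTGAAAG was found in 0 of the 11, against 0.0913% of all. Its last 7 letters, GTGAAAG, were found in 0, against 4.24% of all, and its first 7, GAAAGTG, searched for after the sequences had been seen, in 1, that of Irf4, against 4.81% of all. The 7-letter ends share letters with the consensus. A match is a run of letters and no evidence of binding. The Irf4 promoter is shown whole because Irf4 differed most between CKO and the other groups with all libraries in the fit, with the match, on the opposite strand, in capitals from position -3 to 4, counted from the start site with no position 0 (chr13:30748983-30749282, plus strand). Of the Irf2 promoter, the end away from the start site is shown because it holds the single IRF element found, with the IRF element in capitals at -241 to -232 (chr8:46739495-46739537, plus strand).
Irf4: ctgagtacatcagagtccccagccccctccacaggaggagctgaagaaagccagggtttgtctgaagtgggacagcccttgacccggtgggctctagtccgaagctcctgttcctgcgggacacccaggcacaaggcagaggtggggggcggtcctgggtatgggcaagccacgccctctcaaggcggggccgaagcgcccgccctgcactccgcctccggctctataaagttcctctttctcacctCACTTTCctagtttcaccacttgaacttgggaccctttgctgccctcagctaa
Irf2: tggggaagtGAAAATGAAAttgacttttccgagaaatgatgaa

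Reads counted on genes ranged from 14958458 to 17799091 per library, and 10912 to 13416 of them fell on the 8 IRF genes. Prdm1 was at 19.6 and 30.1 FPKM in BTg libraries, at 0.849 and 0.669 in libraries labelled CKO, and at 0.458 and 0.628 in WT libraries. It was higher in BTg than in WT (limma adjusted p = 0.0221). The limma adjusted p was 0.00486 under voom, 0.13 under a replicate block, 0.105 under quantile normalization and 0.117 with a filter of at least 0.1 FPKM in 2 libraries. Prdm1 reached 1 FPKM only in the 2 BTg libraries. It thus passed the main filter through the group where it is high. The first p-value and those under a replicate block and quantile normalization are not independent of that filter. The gene sum in CKO was not below that in WT. A sum over the gene cannot check a deletion of part of it, so the group is called the libraries labelled CKO, and each direction drawn from it rests on the label. All 9 genes of a CD4 T cell marker list were detected in every library, and per exon length Cd4 stood at 126 to 243 FPKM, beside 1.74 to 8.12 for the sum of Cd8a and Cd8b1. CKO replicate 1 was far from the other 5 libraries along the leading principal component (56.5% of the variance), and neutrophil markers summed to 7160 FPKM in it, against 29 to 165 in those 5. The CD4 T cell sum was 2510 and 2030 FPKM in BTg, 1250 and 1660 in CKO, and 2250 and 1510 in WT, with 0 of 9 genes higher in CKO than in WT by mean and 9 of 9 higher in BTg than in WT.

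Per kilobase of merged exon, Irf1 was the most abundant member in all 3 groups. In WT the mean exon-length FPKM were 51.9 for Irf1, 41.5 for Irf3, 24.4 for Irf9, 15.8 for Irf7, 9.31 for Irf2, 5.34 for Irf4, 4.87 for Irf8 and 3.61 for Irf5. Irf4 and Irf8, and Irf8 and Irf5, overlapped between libraries there, and the other neighbours in this order did not. In the libraries labelled CKO, Irf4 had a mean of 13.8 exon-length FPKM and overlapped Irf7, at 14.7, while Irf8, Irf2 and Irf5 stood at 8.88, 8.83 and 8.4, each overlapping the next. In BTg the order was the one of WT, from Irf1 at 66.1 to Irf5 at 2.57. Irf1, Irf3, Irf9 and Irf7 thus held the upper 4 ranks by mean in every group. Irf4 stood below Irf2 in BTg and WT and above it in both CKO libraries. Irf8 stood below Irf2 in BTg and WT. In CKO it was above Irf2 in replicate 1 (10.8 against 6.88) and below it in replicate 2 (6.95 against 10.8). Levels of different genes are compared per exon length, because the deposited FPKM divide by the median genomic span of the transcripts, 9.06 times the exon length for Irf2 and 0.549 times for Irf7. Unless named as exon-length values, the levels below are the deposited FPKM, compared between libraries for the same gene or the same marker list.

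**Figure D1:**
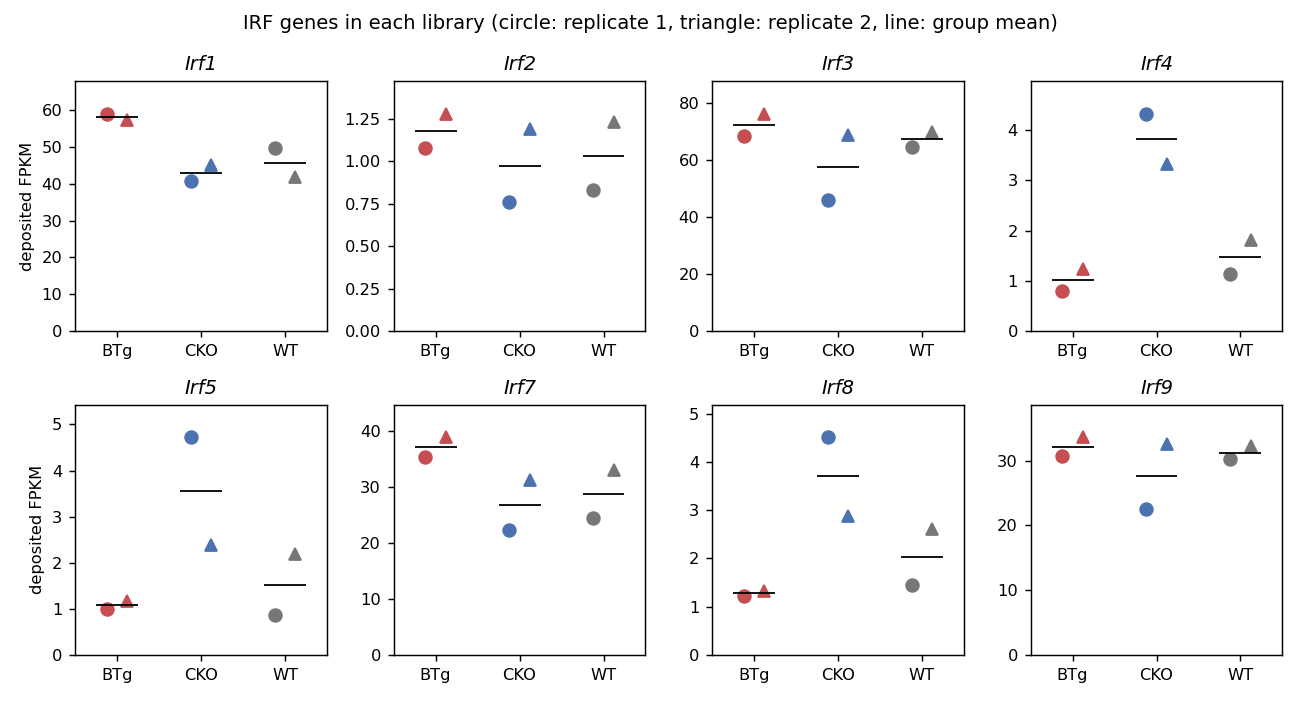
Deposited FPKM (vertical axes, from 0) of the 8 IRF genes in each library of BTg, CKO and WT, with replicate 1 as circles, replicate 2 as triangles and the group mean as a line. Both CKO points of Irf4, at 4.33 and 3.32 FPKM, lie above the other 4, whereas the Irf3 and Irf9 points overlap between groups apart from CKO replicate 1.

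Irf4 (ENSMUSG00000021356, chromosome 13, 30749226 to 30766976 on GRCm38) showed the largest difference of the family in CKO against WT and in BTg against CKO when all 6 libraries were used. Without CKO replicate 2 Irf5 differed more, by 1.23 on the log2 scale against 1.12 for Irf4 in CKO against WT and by -1.46 against -1.41 in BTg against CKO, and without WT replicate 2 the CKO against WT values were 1.24 and 1.17. It stood at 0.801 and 1.23 FPKM in BTg, from 217 and 327 reads, at 4.33 and 3.32 FPKM in the libraries labelled CKO, from 1368 and 1044 reads, and at 1.13 and 1.82 FPKM in WT, from 358 and 492 reads. Both CKO libraries were above all others, while BTg and WT overlapped. In CKO against WT the ratio of mean FPKM was 2.59 and the difference on the log2(FPKM + 1) scale was 0.97 (SE 0.25, 95% interval 0.36 to 1.58). Adjusted over 10798 genes this did not pass (limma adjusted p = 0.934). In BTg against CKO the ratio was 0.266 and the log2 difference -1.26 (SE 0.25, 95% interval -1.87 to -0.65), with limma adjusted p = 0.262. In BTg against WT the ratio was 0.689 and the log2 difference -0.29, with a 95% interval of -0.90 to 0.32 and limma adjusted p = 1. Both numbered pairs of libraries gave the same directions: the log2 differences of CKO from WT were 1.32 and 0.62, those of BTg from CKO -1.56 and -0.95, and those of BTg from WT -0.24 and -0.34. Without CKO replicate 1, Irf4 was 0.82 higher in CKO replicate 2 than in WT on the log2 scale. A difference on this scale understates that of genes at low levels, and limma voom on recovered reads gave log2 differences of 1.41 for CKO against WT (adjusted p = 0.682) and -1.93 for BTg against CKO (adjusted p = 0.112).

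Irf8 and Irf5 had a pattern like each other's, with the highest value in CKO replicate 1. Irf8 (ENSMUSG00000041515, chromosome 8, 120736358 to 120756694) stood at 1.22 and 1.33 FPKM in BTg, at 4.51 and 2.89 FPKM in the libraries labelled CKO, and at 1.45 and 2.60 FPKM in WT. The 3 groups did not overlap, but CKO replicate 2 and WT replicate 2 were only 1.11-fold apart. The log2 difference was 0.64 (SE 0.28, limma adjusted p = 1) for CKO against WT, -1.02 (SE 0.28, limma adjusted p = 0.435) for BTg against CKO, and -0.39 (SE 0.28, limma adjusted p = 1) for BTg against WT. Irf5 (ENSMUSG00000029771, chromosome 6, 29526625 to 29541871) stood at 0.991 and 1.18 FPKM in BTg, at 4.72 and 2.38 FPKM in the libraries labelled CKO, and at 0.866 and 2.18 FPKM in WT, from as few as 104 reads. BTg libraries lay inside the range of WT, and CKO replicate 2 was 1.09-fold above WT replicate 2. Its log2 difference was 0.85 (SE 0.36, limma adjusted p = 1) for CKO against WT, -1.08 (SE 0.36, limma adjusted p = 0.494) for BTg against CKO, and -0.23 (SE 0.36, limma adjusted p = 1) for BTg against WT. The differences between CKO and WT rested on single libraries: without CKO replicate 1 they were 0.39 for Irf8 and 0.47 for Irf5, and without WT replicate 1 0.36 and 0.47. Irf5 shares 411 exon bases, 14.1% of its exon length, with Tnpo3 on the opposite strand. How the counting treated strand is not given in the sources used here, but Tnpo3 itself stayed between 4.25 and 4.63 FPKM in all libraries. Irf8 lies within the read-through gene Gm20388 on the same strand, which has no row in the table.

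Summed markers of B cells varied across the libraries in an order near that of Irf5 and Irf8, as did some but not all of the other marker lists. Relative to the WT mean, Irf5 was at 0.65 and 0.772 in BTg, 3.1 and 1.56 in CKO, and 0.569 and 1.43 in WT. Irf8 was at 0.601 and 0.658 in BTg, 2.22 and 1.43 in CKO, and 0.717 and 1.28 in WT. The summed FPKM of 9 B cell markers was at 0.63 and 0.768 of its WT mean in BTg, 2.77 and 1.43 in CKO, and 0.73 and 1.27 in WT. All 3 were thus highest in CKO replicate 1, next in CKO replicate 2 and WT replicate 2. Per exon length the B cell sum was 15.7 and 18.8 FPKM in BTg, 67 and 34.4 in CKO, and 18.2 and 34.4 in WT, and the 9 genes held 0.0033 to 0.0119% of library reads. Only 4 of the 9 B cell genes had a higher mean in CKO than in WT. Of these, Cd79a was at 10 and 3.77 FPKM in CKO and 2.08 and 4.29 in WT. Pax5, which defines B cells, had 16 and 39 reads in BTg, 23 and 30 in CKO, and 18 and 63 in WT, or 0.114 to 0.466 FPKM per exon length, and none of the 9 was at 0. CKO lay inside the range of WT for Pax5, unlike for Cd79a in CKO replicate 1. Monocyte and macrophage markers summed to 6.61 and 9.41 FPKM in BTg, 213 and 32.5 in CKO, and 7.4 and 22.3 in WT, higher in CKO in 8 of 8 genes by mean, with Fcgr1 at 0 in BTg replicate 1. Conventional dendritic cell markers summed to 1.73 and 2.52 FPKM in BTg, 5.55 and 4.36 in CKO, and 1.65 and 4.54 in WT, with 6 of 8 higher in CKO than in WT by mean. Plasma cell markers summed to 144 and 96.7 FPKM in BTg, 967 and 258 in CKO, and 166 and 168 in WT, with 8 of 8 higher in CKO. NK cell markers summed to 10.9 and 10.5 FPKM in BTg, 4.26 and 8.05 in CKO, and 9.74 and 7.71 in WT. CKO replicate 1 was lowest, though 3 of the 7 genes were higher in CKO than in WT by mean. Prf1 was the largest part of this sum in every library, at 10.1 and 9.76 FPKM in BTg, 1.86 and 4.51 in CKO, and 7.5 and 5.6 in WT. Plasmacytoid dendritic cell markers summed to 4.08 and 3.86 FPKM in BTg, 2.6 and 3.79 in CKO, and 2.39 and 4.07 in WT. By mean, 5 of 8 were higher in CKO than in WT, and 1 of 8 higher in BTg than in CKO. Ccr9 was the largest part of the BTg sums, at 2.84 and 2.33 FPKM in BTg, 0.234 and 0.728 in CKO, and 1.22 and 0.913 in WT. The order of the sums also changed with the length used. Per exon length they were 8.03 and 8.42 in BTg, 9.72 and 13.2 in CKO, and 6.22 and 10.7 in WT. In CKO replicate 2, Irf4 was at 2.25 of its WT mean. In that library the B cell sum was at 1.43, the conventional dendritic cell sum at 1.41, the plasma cell sum at 1.54 and the monocyte and macrophage sum at 2.19. The part of other cells in the Irf4, Irf5 and Irf8 values was not tested. In bulk RNA, fewer cells of a type and less RNA per cell cannot be told apart.

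**Figure D2:**
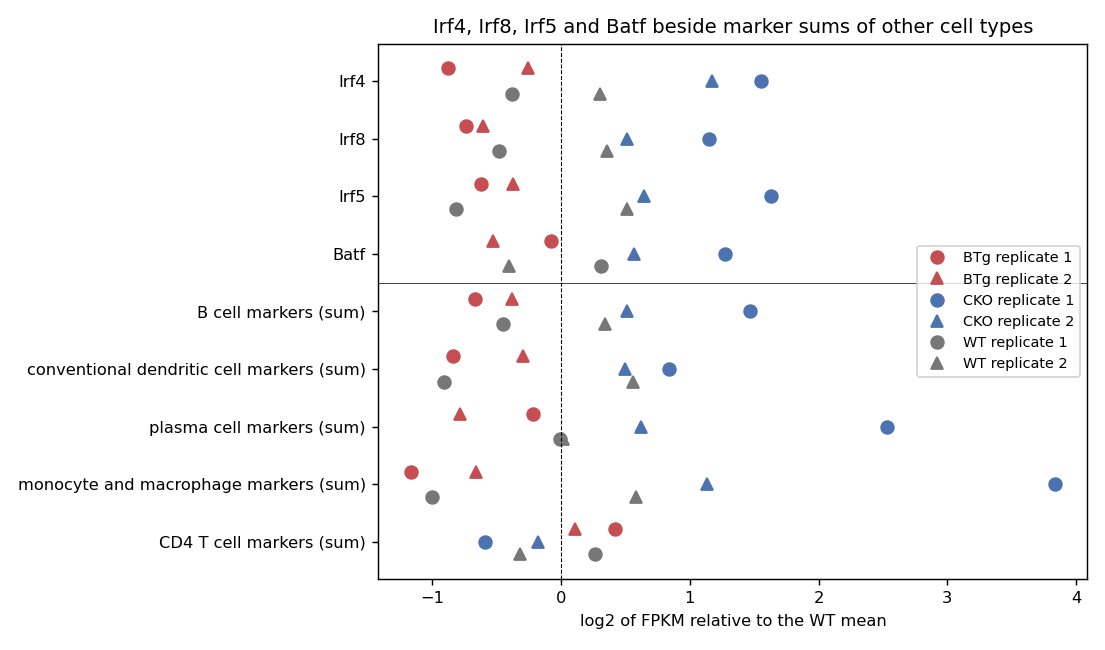
Levels of Irf4, Irf8, Irf5 and Batf (above the line) and summed FPKM of marker lists (below it) in each library, as log2 of the value relative to the WT mean (horizontal axis), in red for BTg, blue for CKO and grey for WT. Irf8 and Irf5 spread like the B cell sum. Both CKO points of Irf4, at 2.93 and 2.25 times the WT mean, lie above its other 4. The same holds for Irf8, Irf5, Batf and the B cell, plasma cell and monocyte sums, with the plasma cell sum at 5.79 and 1.54 in CKO.

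Of the competing pair, Irf1 was higher in both BTg libraries without passing the test, and Irf2 overlapped between groups. Irf1 (ENSMUSG00000018899, chromosome 11, 53770014 to 53778374) stood at 59.0 and 57.4 FPKM in BTg, at 40.7 and 45.2 FPKM in the libraries labelled CKO, and at 49.6 and 41.7 FPKM in WT. Both BTg libraries were above the other 4, while CKO and WT overlapped. The log2 difference was 0.35 (SE 0.27, 95% interval -0.32 to 1.02, limma adjusted p = 1) for BTg against WT and 0.43 (SE 0.27, 95% interval -0.24 to 1.10, limma adjusted p = 0.689) for BTg against CKO. Irf2 (ENSMUSG00000031627, chromosome 8, 46739732 to 46847458) stood at 1.08 and 1.28 FPKM in BTg, at 0.759 and 1.19 in the libraries labelled CKO, and at 0.829 and 1.23 in WT. The groups overlapped throughout, and the 3 log2 differences lay between -0.04 and 0.15. In all groups replicate 2 of Irf2 was above replicate 1, so the spread within a group was as wide as that between groups.

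Irf7 was higher in both BTg libraries without passing the test, and Irf3 and Irf9 differed by less than their spread. Irf7 (ENSMUSG00000025498, chromosome 7, 141262706 to 141266481, minus strand) stood at 35.3 and 38.9 FPKM in BTg, at 22.3 and 31.2 in the libraries labelled CKO, and at 24.4 and 33.1 in WT. BTg was above both other groups in every library, but BTg replicate 1, at 35.3, was close to WT replicate 2, at 33.1. Of all genes tested, 14.7% were likewise higher without overlap in BTg against WT and 17.8% in BTg against CKO. The log2 differences of Irf7 were 0.37 (SE 0.31, limma adjusted p = 1) against WT and 0.47 (SE 0.31, limma adjusted p = 0.693) against CKO. Irf3 (ENSMUSG00000003184, chromosome 7, 44997648 to 45002848) stood at 68.5 and 76.4 FPKM in BTg, at 46.1 and 69.0 in the libraries labelled CKO, and at 64.7 and 70.0 in WT. Irf9 (ENSMUSG00000002325, chromosome 14, 55603571 to 55610030) stood at 30.7 and 33.6 FPKM in BTg, at 22.6 and 32.6 in the libraries labelled CKO, and at 30.2 and 32.3 in WT. For both genes CKO replicate 1 alone was low and the other 5 libraries lay close together. The log2 differences of CKO from WT, -0.25 for Irf3 and -0.20 for Irf9, became 0.04 and 0.06 without that library. The 95% intervals of BTg against WT ran from -0.68 to 0.88 for Irf3 and from -0.67 to 0.75 for Irf9, so neither direction was resolved. Irf3, Irf7 and Irf9 overlap a neighbouring gene by 1.19 to 2.56% of their exon length.

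Over the whole family, 0 of 8 members passed at limma adjusted p under 0.05 in any comparison. In BTg against WT 2 of 10798 tested genes (0.0185%) passed, in CKO against WT 0 (0.0%), where 454 genes had an unadjusted p under 0.05 and limma voom also called 0, and in BTg against CKO 2 (0.0185%). At an unadjusted p under 0.05 stood 0 of 8 members in BTg against WT (1.62% of all genes tested), 1 in CKO against WT (4.2%), which was Irf4, and 3 in BTg against CKO (8.79%), which were Irf4, Irf5 and Irf8. Libraries did not overlap for 2 members higher (Irf1 and Irf7, background 14.7%) and 1 lower (Irf8, background 10.4%) in BTg against WT. In CKO against WT they did not overlap for 3 higher (Irf4, Irf5 and Irf8, background 11.5%) and 0 lower (background 8.96%). In BTg against CKO this held for 2 higher (Irf1 and Irf7, background 17.8%) and 3 lower (Irf4, Irf5 and Irf8, background 21.8%). The median log2 difference over the 8 was 0.07 in BTg against WT, -0.06 in CKO against WT and 0.19 in BTg against CKO, beside 0.02, -0.03 and 0.06 over all genes tested. The comparisons share libraries, so the same members recurring in them are not separate observations.

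**Figure D3:**
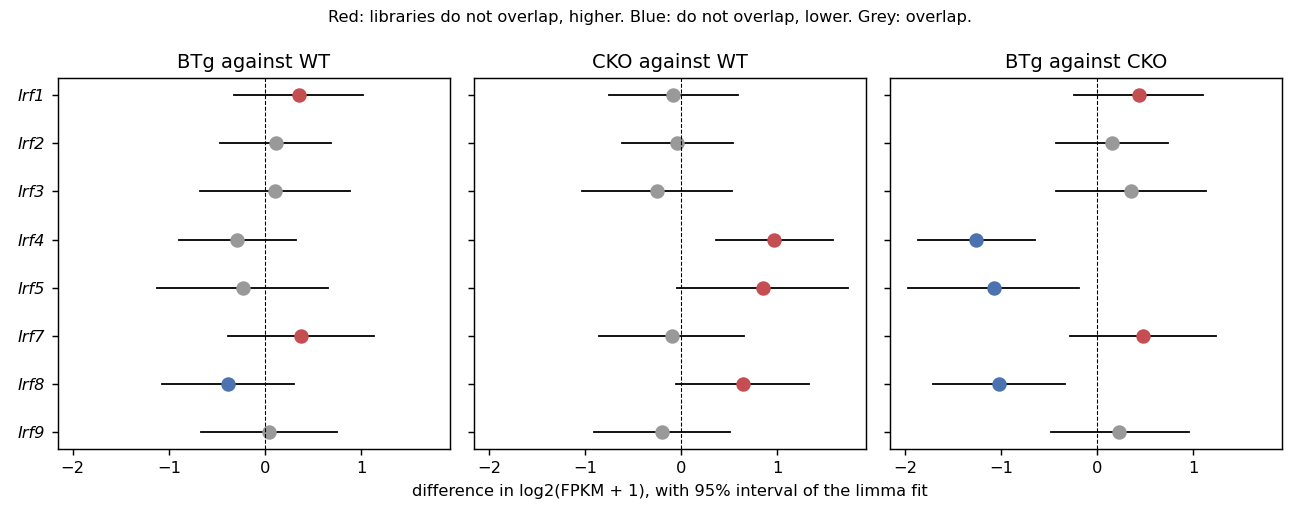
Difference in log2(FPKM + 1) of each IRF gene (horizontal axis) in BTg against WT, CKO against WT and BTg against CKO, with the 95% interval of the limma fit as a line. In CKO against WT the Irf4 interval, 0.36 to 1.58, alone lies off 0, and in BTg against CKO those of Irf4, Irf5 and Irf8 do.

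Irf4 took a larger share of the reads of the family in both CKO libraries than in the other 4. It held 1.95 and 2.8% of the reads on the 8 genes in BTg, 11.7 and 7.78% in the libraries labelled CKO, and 3.12 and 4.51% in WT. Irf8 took 2.83 and 2.89% in BTg, 11.6 and 6.48% in CKO, and 3.82 and 6.16% in WT, so that CKO replicate 2 and WT replicate 2 were close. Irf1 took the largest share in all 6 libraries, between 26.4 and 36.6%. The family as a whole made up 0.0728 and 0.0781% of library reads in BTg, 0.066 and 0.0757% in CKO, and 0.0645 and 0.0715% in WT, so both BTg libraries were above both WT libraries, while CKO overlapped both other groups. These shares were not tested.

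**Figure D4:**
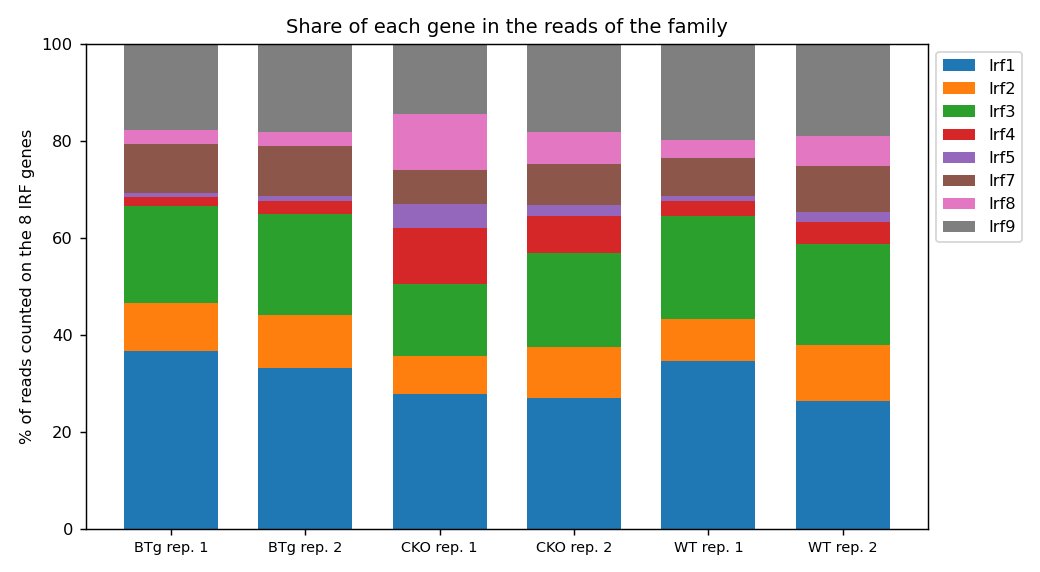
Share of each IRF gene (vertical axis, percent of reads counted on the 8 genes) in each library. Irf4, in red, takes 11.7 and 7.78% in the CKO libraries and 1.95 to 4.51% in the other 4.

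Genes that act with or below the IRFs were read from the same fit, and none passed the threshold in any comparison. Over all 10798 genes tested, only 2, 0 and 2 passed in BTg against WT, CKO against WT and BTg against CKO. Of the ligands, Ifng alone had a tested row among 10 listed, at 0.225 and 0.208 FPKM in BTg, 1.05 and 1.14 in CKO, and 0.859 and 0.429 in WT (limma adjusted p = 0.47 for BTg against CKO). Receptors, Janus kinases and STATs were tested for 10 of 11, with 0 passing. In that list Ifngr2, a chain of the interferon gamma receptor, was at 2.29 and 2.42 FPKM in BTg and 3.72 and 3.29 in WT. Ifnar1, a chain of the type I receptor, was at 15.6 and 19.2 FPKM in BTg, 7.45 and 14.8 in CKO, and 11.7 and 14.7 in WT. Jak1, a kinase of both receptors, was at 12 and 11.9 FPKM in BTg, 5.75 and 10.5 in CKO, and 10.9 and 11.1 in WT, with CKO replicate 1 low as for Irf3. Ifngr1 was at 19.8 and 13.2 FPKM in CKO and 10.8 and 13.2 in WT. Of the sensors, adaptors and kinases upstream, 14 of 20 were tested and 0 passed. Ikbke, a kinase of Irf3 and Irf7, was at 43.5 and 61.9 FPKM in BTg, 21.7 and 59.2 in CKO, and 48.3 and 58.9 in WT, and Myd88, an adaptor for Irf5 and Irf7, was at 13.8 and 15.2 FPKM in BTg, 19.3 and 13.4 in CKO, and 10.7 and 13.6 in WT. Rnf31, a ubiquitin ligase subunit whose gene overlaps Irf9, was at 17.1 and 22.5 FPKM in BTg, 9.38 and 19.8 in CKO, and 13.4 and 18.8 in WT. CKO replicate 1 was the lowest library for Ikbke, Rnf31, Ifnar1 and Jak1.

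Among DNA-binding partners, 10 of 13 were tested and 0 passed. Batf, which binds composite sites with Irf4, was at 3.18 and 2.32 FPKM in BTg, 8.13 and 4.97 in CKO, and 4.17 and 2.54 in WT. CKO was above both other groups in every library, as it was for Irf4, but CKO replicate 2, at 4.97, was close to WT replicate 1, at 4.17. Of all genes tested, 11.5% were likewise higher without overlap in CKO against WT, and 21.8% lower in BTg against CKO. The log2 differences of Batf were 0.79 (SE 0.31, limma adjusted p = 1) for CKO against WT and -0.99 (SE 0.31, limma adjusted p = 0.478) for BTg against CKO. Jund, a partner of BATF, was at 154 and 102 FPKM in BTg, 57.7 and 62.1 in CKO, and 76.2 and 61.6 in WT, with a log2 difference of 0.86 (SE 0.34, limma adjusted p = 1) for BTg against WT. Jun, likewise an AP-1 subunit, differed more between replicates than between groups, at 40 and 8.13 FPKM in BTg and 16.4 and 5.1 in WT. Ikzf1, which can bind with Irf4 and Irf8, was at 4.24 and 8.06 FPKM in CKO and 7.65 and 9.05 in WT. Of cofactors and inhibitors, 16 of 17 were tested and 0 passed. Socs3, a feedback inhibitor of cytokine receptors, was at 218 and 205 FPKM in BTg, 120 and 119 in CKO, and 121 and 119 in WT (log2 difference 0.81, SE 0.29, limma adjusted p = 1 for BTg against WT). Usp18, an inhibitor of the type I receptor, was at 4.68 and 8.89 FPKM in BTg, 11 and 18.5 in CKO, and 8.77 and 10.4 in WT. Fkbp4, a prolyl isomerase that binds Irf4, was at 46.5 and 27.2 FPKM in CKO and 24.1 and 31.8 in WT.

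Interferon-stimulated genes, the targets of Irf9 and its partners, were tested for 39 of 44, with 0 passing in any comparison. In BTg against WT their median log2 difference was 0.07, beside 0.02 over all genes tested, with 23 higher and 16 lower. In CKO against WT it was 0.13, beside -0.03, with 25 higher and 14 lower. In BTg against CKO it was -0.03, beside 0.06, with 18 higher and 21 lower. At an unadjusted limma p under 0.05 stood 0 higher and 1 lower in BTg against WT (83 and 92 of all 10798 genes). CKO against WT held 4 and 0 (336 and 118 of all), and BTg against CKO 1 and 8 (300 and 649 of all). The list was not tested as a set. Cxcl10, a chemokine induced by interferons, was at 0.182 and 0.124 FPKM in BTg, 3.57 and 1.59 in CKO, against 0.886 and 0.364 in WT. BTg lay below CKO by a log2 difference of -1.58 (SE 0.34, limma adjusted p = 0.302). Ly6e was at 41.5 and 49.1 FPKM in BTg, 180 and 92.7 in CKO, and 33.6 and 83.6 in WT. Oasl2 was at 2.65 and 5.05 FPKM in BTg, 12.3 and 4.5 in CKO, and 2.21 and 3.85 in WT, Slfn5 at 9.56 and 9.97 in BTg and 20.4 and 16 in WT, and Oas2 at 1.78 and 4.45 in BTg and 0.886 and 1.88 in WT. CKO replicate 1 was the highest library for Cxcl10, Ly6e and Oasl2.

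The genes whose pattern over the 6 libraries was nearest to that of a member were sought among 8413 protein-coding genes by the root mean square difference of centred log2(FPKM + 1) values, for members that spanned at least 0.5 on this scale. For Irf4, spanning 1.56, they were Mmp25, Scd2 and Lamc1, at 0.099, 0.107 and 0.114. For Irf8, spanning 1.31, they were Nusap1, Rfc3 and Knstrn, at 0.0601, 0.0735 and 0.078. For Irf5, spanning 1.62, they were Trip13, Dpagt1 and Mfsd10, at 0.0575, 0.0635 and 0.0751. Irf1, spanning 0.52, was nearest to Vsir, Sertad3 and Zbp1, Irf3, spanning 0.72, to Sipa1l1, Zadh2 and Zfp597, Irf7, spanning 0.77, to Zfp628, Klhl21 and Washc2, and Irf9, spanning 0.55, to Kansl1, Specc1l and Rlf. Irf2 spanned 0.37 and was left out. Within the family, with Irf2 kept in, the nearest pairs were Irf3 with Irf9, at 0.0524, Irf2 with Irf9, at 0.102, Irf2 with Irf3, at 0.132, and Irf5 with Irf8, at 0.134. Irf4 was nearest to Irf8, at 0.17, then to Irf5, at 0.192, and at 0.622 or more from the others. These distances describe 6 libraries, which share depth and cell makeup as well as group, and carry no test.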

How the data were processed

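The members and gene lists were chosen with earlier results of these data known. The submitters' processing notes name featureCounts 1.6.0, HISAT2 2.1.0, Trimmomatic 0.38 and the build GRCm38. Annotation release and strand setting: not given in the sources used here. FPKM values were deposited by the authors, 1 column for each of 6 libraries, by Ensembl identifier, and all 28914 identifiers matched GENCODE M21. Taking as length the median over a gene's transcripts of their genomic span, 100.0% of values above 0 were whole reads within 0.01, and these reads summed to the library total, so read numbers were recovered.

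Values were taken as log2(FPKM + 1), and genes reaching 1 FPKM in 2 or more libraries entered 1 limma fit across all 6 libraries (R 4.3.3, limma 3.58.1, eBayes with a trend), with Benjamini-Hochberg adjustment over 10798 genes and a threshold of 0.05. The fit has 3 residual degrees of freedom. With 2 libraries a group, an exact permutation test of 1 value cannot go below 0.333 (two-sided) and is not given. Groups and replicate numbers come from the titles, and both BTg titles end in 1 outside the bracketed name. Named genes are all members, Prdm1, and of each pathway list those past the threshold and the 2 with the largest difference in each comparison. Cd4, Cd79a, Pax5, Fcgr1, Prf1, Ccr9, the CD8 genes, Tnpo3 and the 7-letter motif at the start of the consensus were chosen after their values were seen. Alternatives were other pseudocounts, filters, scalings, variance models, a replicate block, limma voom, exon length and leaving out each library. Figures were drawn with matplotlib 3.10.9.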

Additional observations from a re-analysis of the deposited data

How the results depend on the processing

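Over 18 alternatives, 423 member values were recomputed, 0 of them passed at adjusted p under 0.05, and 14 turned direction. Irf4 kept its direction in all 3 comparisons, at 0.77 to 1.41 in CKO against WT (adjusted p = 0.184 to 1), -1.93 to -1.10 in BTg against CKO (adjusted p = 0.0857 to 1) and -0.52 to -0.09 in BTg against WT. Irf8, and Irf5 in both comparisons with CKO, also kept theirs. Leaving out 1 library, the range of log2 differences in BTg against WT was -0.03 to 0.25 for Irf2, -0.61 to 0.16 for Irf5 and -0.02 to 0.10 for Irf9. In CKO against WT it was -0.20 to 0.04 for Irf1, -0.20 to 0.12 for Irf2, -0.54 to 0.04 for Irf3, -0.33 to 0.13 for Irf7 and -0.45 to 0.06 for Irf9, and quantile normalization gave 0.00 for Irf2. In BTg against CKO it was -0.01 to 0.31 for Irf2 and -0.02 to 0.49 for Irf9. The cause was not tested.

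The number of genes called among all tested was 2, 0 and 2 in BTg against WT, CKO against WT and BTg against CKO. Without a filter it was 46, 65 and 81, with limma voom 4, 0 and 7, and with exon length 2, 0 and 9. With at least 1 FPKM in all 6 libraries it was 1, 0 and 1, and with at least 0.1 FPKM in 2 libraries, with quantile normalization or with a replicate block it was 0 in each. Leaving out 1 library gave 0 in every case of BTg against WT, 0 to 67 in CKO against WT and 0 to 238 in BTg against CKO, the higher numbers without CKO replicate 2, where CKO replicate 1 is the lone library of its group and is assumed to vary like the others. The labels tie replicate numbers to no shared animal or day. The replicate differences of the groups correlated across genes at 0.456 (BTg and CKO), 0.469 (BTg and WT) and 0.173 (CKO and WT). Under the replicate block the Irf4 adjusted p was 0.594 in CKO against WT and 0.228 in BTg against CKO, with no member passing. Irf2, Irf4, Irf5 and Prdm1 could not be fitted under the filter on all 6 libraries. Prdm1 also could not be fitted when either BTg library was left out. Irf5 rests on as few as 104 reads a library, so counting error is widest there.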
